A study of Mus musculus with 9 samples.

Results

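The cells described here are astrocyte-marker cells of the first 3 libraries, in column order, of a single-cell RNA-seq table of mouse brain. A cell was taken when the UMIs (unique molecular identifiers, each a counted mRNA molecule) of Htra1, Slc1a3, Cldn10 and Btbd17 summed to 2 or more and when it had no UMI of Snap25 or Slc17a7, which are neuronal genes. The rule took 2268 cells, 26.7% of the cells of libraries 1 to 3, out of 29571 cells in the 9 libraries. The study took cortex, hypothalamus and brainstem from male wild-type C57BL/6 mice (the J substrain in the study's methods) of 9 to 11 weeks that had slept undisturbed (NS), had been kept awake for 12 h (SD) or had then been left to recover (RS), with 3 mice pooled into each library and tissue taken at zeitgeber time 12. Recovery is given as 12 h in part of the labels and as 24 h in another. The libraries are marked in the table by codes that no label explains. The codes of libraries 1 to 3 share a stem, but neither their region nor which of them is NS, SD or RS is known, and the name cortical astrocytes therefore rests on an inference from column order that was not used for any comparison. With 1 library for each combination there was no replicate and no test, and every interval below covers counting error only.

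Astrocytes are the glial cells that take up glutamate and potassium from the space around synapses, supply neurons with energy substrates and lipids and wrap blood vessels. Slc1a3 encodes the glutamate transporter GLAST, Htra1 a secreted serine protease and Cldn10 a claudin of the tight-junction family. Slc1a3 stood at 3272, 3421 and 2972 CPM (counts per 1000000 UMIs of those cells) in the members of libraries 1, 2 and 3. Htra1 stood at 1784, 2526 and 1492 CPM and was highest in library 2. Cldn10 stood at 1462, 1700 and 1222 CPM, and Btbd17 at 706, 664 and 608 CPM. These genes chose the cells and their levels describe the rule.

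Metallothioneins are small cysteine-rich proteins that bind zinc and copper. Their promoters are shown because Mt1 and Mt2 were both highest in library 2 among all members, as Mt3 also was. The differences were too small to enter the set of genes that differed between libraries 1 to 3. The windows run from 250 bases before to 50 bases after the RefSeq gene start, on the plus strand of chromosome 8 in build GRCm38.p6, at chr8:94178839-94179138 for Mt1, chr8:94172368-94172667 for Mt2 and chr8:94152357-94152656 for Mt3. Capitals mark the 7-base letters TGCACNC and TGCGCNC, cores of the metal response element, on either strand.
Mt1: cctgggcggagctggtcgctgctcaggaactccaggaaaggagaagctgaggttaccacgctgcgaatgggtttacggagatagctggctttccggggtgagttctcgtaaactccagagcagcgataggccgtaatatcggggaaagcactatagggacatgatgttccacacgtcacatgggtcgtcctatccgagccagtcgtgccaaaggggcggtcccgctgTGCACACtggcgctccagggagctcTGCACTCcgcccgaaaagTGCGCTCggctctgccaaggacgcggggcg
Mt2: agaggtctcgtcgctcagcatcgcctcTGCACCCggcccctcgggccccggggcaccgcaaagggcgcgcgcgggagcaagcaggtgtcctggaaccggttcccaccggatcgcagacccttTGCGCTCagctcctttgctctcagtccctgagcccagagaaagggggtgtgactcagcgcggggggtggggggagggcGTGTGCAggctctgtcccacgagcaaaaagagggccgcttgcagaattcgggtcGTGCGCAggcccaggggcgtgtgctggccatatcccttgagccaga
Mt3: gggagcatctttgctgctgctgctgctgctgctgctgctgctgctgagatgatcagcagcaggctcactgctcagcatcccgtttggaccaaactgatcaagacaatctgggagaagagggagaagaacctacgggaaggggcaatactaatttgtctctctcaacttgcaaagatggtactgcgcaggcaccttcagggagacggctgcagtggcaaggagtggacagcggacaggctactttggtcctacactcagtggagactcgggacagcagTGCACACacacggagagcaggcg
The Mt1 window held 3 matches, the Mt2 window 4 and the Mt3 window 1. Of 32851 promoter windows in the same RefSeq table, 25.7% held at least 1 match and 0.518% held 4 or more. A match is a description of the letters and not a binding site.

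As counted, without matching depth, astrocyte-marker cells made up overlapping shares of libraries 1 to 3. They were 658 of 2575 cells in library 1, which is 25.6% (exact 95% binomial interval 23.9 to 27.3), 870 of 3175 cells in library 2, which is 27.4% (25.9 to 29.0), and 740 of 2745 cells in library 3, which is 27.0% (25.3 to 28.7). The 3 intervals overlapped. In libraries 4 to 9 the same rule took between 2.76% and 12.7% of the cells. Depth differed among the first libraries, with a median of 402, 406 and 854 UMIs per cell in libraries 1, 2 and 3, and a rule that counts UMIs reaches deeper cells more easily. When cells of at least 500 UMIs were thinned to 500, the shares were 19.6% (17.0 to 22.5), 14.7% (12.7 to 16.9) and 23.2% (21.6 to 24.8), with library 2 below both others. With at least 3 marker UMIs they were 16.1%, 18.4% and 22.4%, and in cells of at least 1000 UMIs 3.37%, 2.08% and 10.9%. The thinning left out 1735 cells of library 1 and 2036 of library 2 but 0 of library 3, so no order is read from any of these shares.

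**Figure D1:**
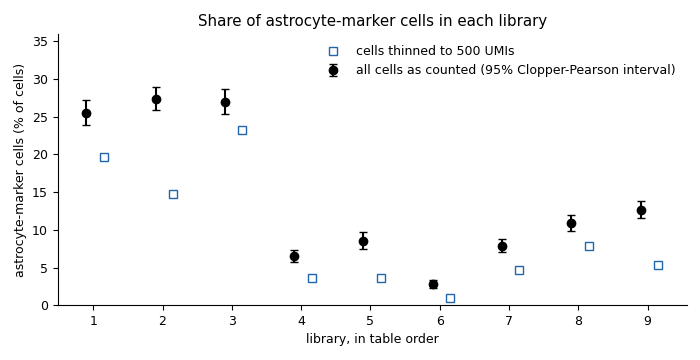
Astrocyte-marker cells as a percentage of all cells in each of the 9 libraries (x axis, table order). Filled points are all cells with exact 95% binomial intervals, and open squares are cells thinned to 500 UMIs. Libraries 1 to 3 sit between 25.6% and 27.4% as counted, above the other 6 libraries, which reach 12.7%.

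Many members lay close to the limit of the rule. The median sum of the marker UMIs was 3 in libraries 1 and 2 and 5 in library 3, and 243, 287 and 125 members had exactly 2. Aldoc, an astrocyte aldolase that the rule did not use, was at 4905, 6541 and 5016 CPM in members with 2 marker UMIs and at 5668, 7447 and 6062 CPM in those with more. In cells with 1 marker UMI and no Snap25 or Slc17a7, just outside the rule, Aldoc was at 4285, 4511 and 2415 CPM. Those cells were below the members in each library but above cells with 0 marker UMIs, where Aldoc was at 615, 503 and 174 CPM. The limit on Snap25 and Slc17a7 removed 55, 101 and 134 cells with enough marker UMIs, which was 7.71%, 10.4% and 15.3% of them.

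The members held a median of 418, 378 and 724 UMIs per cell, and the marker-negative cells 388, 438 and 1060. To describe the members, each gene's level was set beside that of the marker-negative cells of the same library, which had 0 UMIs of all 4 marker genes. A gene was counted as higher or lower when its level plus 10 CPM differed at least 2-fold in the same direction in each of libraries 1 to 3. Of 4571 genes with a mean of at least 50 CPM in either class, 463 (10.1%) were higher and 1466 (32.1%) were lower. The median gene was below the marker-negative level, at -0.63, -0.63 and -0.69 on the log2 scale. The cells were chosen by genes of these same transcriptomes, so the counts describe the cells and support nothing further.

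Other genes known from astrocytes were higher throughout. Of 38 such genes, all 38 were higher, with median log2 ratios of 2.65, 2.96 and 3.78 beside the negative medians over all genes. They summed to 109841, 114300 and 110285 CPM in the members and to 25292, 16945 and 9639 CPM in marker-negative cells. The order of the ratios across libraries thus followed the marker-negative level. The part of astrocytes without a marker UMI in that level was not tested, here or for the ratios below. Pla2g7, a phospholipase that hydrolyzes platelet-activating factor, stood apart most by the lowest of its 3 ratios. It was at 1144, 1258 and 1118 CPM in the members against 78.5, 62.0 and 24.3 CPM in marker-negative cells, ratios of 13.03, 17.6 and 32.9. The other genes with the largest ratios were F3 (tissue factor), Cxcl14 (a chemokine), Plpp3 (a lipid phosphatase), Gja1, Gpr37l1 (an orphan receptor), Slc7a10 (a transporter of small neutral amino acids), Clu, Aqp4 and Bcan (the proteoglycan brevican), whose lowest ratios lay between 10.4 and 12.6. Apoe, the main lipid carrier made by astrocytes, was at 25558, 24117 and 25054 CPM against 3488, 2169 and 1040 CPM. Cst3, which encodes the protease inhibitor cystatin C, was nearly level across the libraries among all members, at 24580, 23442 and 23791 CPM. In the few members of at least 1000 UMIs it was not level, at 17836, 8963 and 23855 CPM. In marker-negative cells Cst3 was at 11817, 5100 and 2445 CPM, which gave ratios of 2.08, 4.59 and 9.70. Microglia also make Cst3, and the 12 microglial genes summed to 8238, 3116 and 1450 CPM in those marker-negative cells, but their part in the Cst3 ratios was not tested. Gfap, the filament protein of reactive astrocytes, was at 136, 138 and 138 CPM.

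**Figure D2:**
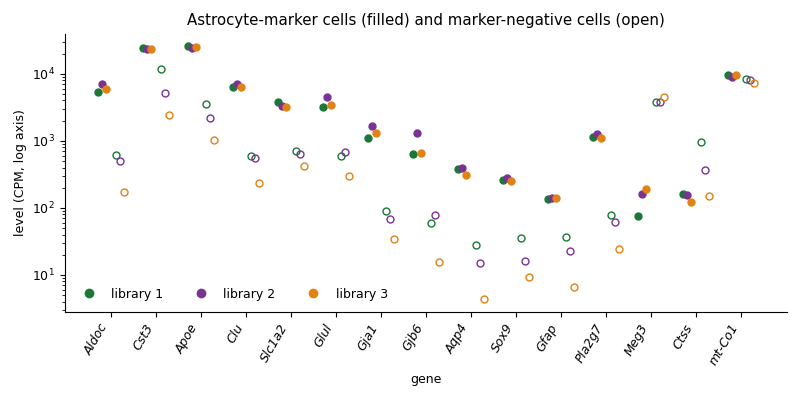
Levels in CPM on a log axis for astrocyte genes (left), the neuronal RNA Meg3, the microglial gene Ctss and the mitochondrial gene mt-Co1 in libraries 1 to 3. Filled points are astrocyte-marker cells and open points are marker-negative cells. For Apoe the members lie between 24117 and 25558 CPM and the marker-negative cells between 1040 and 3488 CPM.

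Genes for handling glutamate and GABA were mostly higher in the members. Of 13 with a sufficient level, 10 were higher and 2 were lower, beside 10.1% and 32.1% of all genes. Their median log2 ratios were 2.24, 2.196 and 2.86. Slc1a2, the glutamate transporter GLT-1, was at 3819, 3258 and 3147 CPM against 693, 631 and 426 CPM. Glul, the enzyme that turns glutamate into glutamine, was at 3163, 4532 and 3403 CPM, and library 2 was the highest. The GABA transporter Slc6a11 had ratios of 9.42, 7.66 and 12.4. The 2 lower genes were Got1, a cytosolic aspartate aminotransferase, and Grm5, the metabotropic glutamate receptor mGluR5, which was at 23.2, 8.13 and 8.42 CPM against 264, 280 and 318 CPM.

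Most channel, pump and junction genes were higher in the members. Of 13 ion and water genes, 10 were higher and 2 were lower, beside 10.1% and 32.1% of all genes. Their median log2 ratios were 2.57, 2.73 and 3.14. Atp1b2, a beta subunit of the sodium pump, was higher, at 879, 1247 and 1084 CPM against 157, 179 and 114 CPM. Atp1b1, a beta subunit that neurons use, was lower, at 318, 314 and 345 CPM against 1082, 1306 and 1298 CPM. The water channel Aqp4 was at 385, 393 and 310 CPM. Both connexins of the astrocyte gap junction, Gja1 and Gjb6, were higher. Gja1 (connexin 43) was at 1101, 1637 and 1288 CPM against 90.9, 69.3 and 34.1 CPM. Gjb2, another connexin, was near the limit that 3 counts set (9.95, 8.13 and 5.05 CPM) at 19.9, 16.3 and 10.1 CPM. Tjp1, which encodes a scaffold of tight and gap junctions, was at 49.7, 67.8 and 70.7 CPM against 86.8, 87.8 and 89.5 CPM.

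Most lipid genes were higher. Of 20, 17 were higher and 0 lower, beside 10.1% and 32.1% of all genes, with median log2 ratios of 2.25, 2.30 and 2.73. The 17 include Mt3, a metallothionein that was also placed on this list. Dbi, which encodes an acyl-CoA-binding protein, was at 2311, 2128 and 2004 CPM against 384, 310 and 165 CPM. Of 15 energy genes, 6 were higher and 1 was lower, beside the same shares of all genes, with median log2 ratios of 0.34, 0.83 and 0.57. The 6 include the phospholipase Pla2g7, which was also placed on this list. Aldoc was at 5411, 7164 and 5893 CPM with ratios of 8.68, 14.0 and 32.2. Ckb, brain-type creatine kinase, was at 3564, 3640 and 3246 CPM with ratios between 2.96 and 3.40, and Ldhb, a lactate dehydrogenase subunit, was at 988, 1204 and 1059 CPM with ratios between 2.06 and 3.03. The lower gene was Hk1, a hexokinase, at 23.2, 51.5 and 50.5 CPM against 146, 164 and 183 CPM. Slc2a1, a glucose transporter that brain endothelium also carries, was at 136, 230 and 167 CPM against 180, 404 and 239 CPM and met neither count.

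Receptors, ligands and transcription factors were mixed. Of 32 signaling genes, 21 were higher and 5 were lower, beside 10.1% and 32.1% of all genes. Their median log2 ratios were 1.89, 2.05 and 2.47. Ptn, which encodes the growth factor pleiotrophin, was at 2370, 2030 and 2889 CPM against 686, 808 and 906 CPM. Ntrk2, the receptor of BDNF, was at 666, 745 and 596 CPM with ratios of 2.77, 3.02 and 2.37. Its ligand Bdnf was among the lower genes, at 3.31, 0 and 5.05 CPM against 53.7, 89.5 and 63.2 CPM, and the members' Bdnf lay at or under the limit of 3 counts in each library. The other lower genes were App, Adora1, Gabbr2 and Nlgn1, with App (the amyloid precursor) at 103, 122 and 94.3 CPM against 1067, 1132 and 1255 CPM. Of 24 transcription factor genes, 13 were higher and 2 (Nfix and Hlf) were lower, beside the same 10.1% and 32.1%. Their median log2 ratios were 1.42, 1.38 and 1.78. Id4, an inhibitor of helix-loop-helix factors, was at 550, 599 and 557 CPM with ratios of 9.57, 14.4 and 29.8, and Tsc22d4 was at 776, 821 and 786 CPM with ratios between 6.00 and 15.9.

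Most immediate-early genes were lower. Of 13 immediate-early genes, which stimulated cells switch on within minutes, 0 were higher and 10 were lower, beside 10.1% and 32.1% of all genes. Their median log2 ratios were -1.74, -1.53 and -1.54. Jund was at 86.2, 157 and 123 CPM against 307, 417 and 383 CPM, and Klf2 was at 43.1, 100.3 and 62.3 CPM against 229, 434 and 282 CPM. Egr1, named after its values were seen, was at 6.63, 16.3 and 20.2 CPM against 337, 376 and 464 CPM. Cebpb met neither count, at 53.0, 111 and 47.1 CPM against 129, 120 and 105 CPM. Of 13 chaperone genes, 5 were lower and 0 higher, with median log2 ratios of -1.11, -0.96 and -1.13, and the share that was lower is near the 32.1% of all genes. Hsp90ab1 was at 245, 230 and 285 CPM against 962, 993 and 1110 CPM, while Hspa5, the chaperone of the endoplasmic reticulum, was at 189, 203 and 246 CPM against 172, 164 and 146 CPM. Neither the 18 ribosomal protein genes nor the 12 mitochondrially encoded genes held any gene called in either direction, and their median log2 ratios lay between -0.75 and -0.28 and between 0.04 and 0.30.

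The calls among clock and glucocorticoid-response genes were few, and nothing is read from them beside 10.1% higher and 32.1% lower over all genes. Of 14 clock genes, Per3 and Rorb were higher and Clock and Hlf were lower. Per3, a period gene, was at 295, 252 and 241 CPM against 100, 107 and 105 CPM. Hlf, a PAR-domain factor, was at 59.7, 73.2 and 65.7 CPM against 192, 249 and 263 CPM. Of 10 genes of the glucocorticoid list, Tsc22d3 (GILZ) and Mertk were higher and Sgk1 was lower. Mertk, a receptor for engulfing debris, was at 235, 314 and 251 CPM with ratios of 3.41, 6.16 and 10.0.

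The genes most below the marker-negative level were mainly those of neurons. Meg3, a long noncoding RNA of neurons, was at 76.2, 163 and 192 CPM against 3848, 3783 and 4538 CPM. Nrgn, which encodes the postsynaptic protein neurogranin, was at 79.6, 127 and 175 CPM against 2416, 3110 and 3835 CPM. The rest of the 10 most lowered genes were Gda, Sv2b, Cck, Pcsk2, Camk2b, Cdk5r1, Basp1 and Snhg11, with ratios of 0.0275 to 0.0597. All 11 neuronal list genes with a sufficient level were lower, beside 32.1% of all genes. That list summed to 537, 629 and 748 CPM in the members, 4.50%, 4.76% and 4.73% of its level in marker-negative cells. The rule itself bars 2 neuronal genes, so a low neuronal level is partly set by the rule.

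Transcripts of other cell types were present too, at levels that differed by type. At least 2 UMIs of another type's list, the hemoglobin and pituitary lists and a few list genes set aside, were seen in 10.3%, 13.3% and 20.8% of the members of libraries 1, 2 and 3. At least 2 hemoglobin UMIs were seen in 3.34%, 1.03% and 1.76% of them, and at least 2 pituitary UMIs in 0.304%, 0.115% and 0.676%. The 12 microglial genes summed to 1479, 1502 and 1068 CPM, which was 18.0%, 48.2% and 73.6% of their level in marker-negative cells, and 0 of the 12 were at 0. At least 2 microglial UMIs were seen in 6.08%, 5.86% and 6.35% of members. The endothelial list summed to 444, 748 and 906 CPM and the smooth muscle list to 126, 325 and 408 CPM. Choroid plexus genes were at 0 in all 3 libraries. Whether these transcripts came from cell pairs in a droplet or from free RNA was not tested. The genes Cspg5 (1094, 1000.3 and 1024 CPM), Cnp and Pdgfrb, listed as markers of oligodendrocyte precursors, oligodendrocytes and pericytes, were higher in the members, with the lowest ratio at 3.96, 2.78 and 2.02. The precursor list without Cspg5, of 7 genes, summed to 36.5, 32.5 and 33.7 CPM against 7.23, 6.45 and 4.71 CPM in marker-negative cells. Of these genes 4, 3 and 4 were at 0 in the members, and 0 members held at least 2 of their UMIs. Olig2 (6.63, 2.71 and 5.05 CPM) and C1ql1 (3.31, 2.71 and 3.37 CPM) were at or under the limit of 3 counts, while the list as a whole was above its marker-negative level.

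The 3 libraries differed from each other in a small set of genes. A gene was counted when its level in 1 library was at least 1.5-fold from that of both others with intervals apart, among 572 genes of at least 200 CPM, a rule chosen after the data were seen. In library 2, 14 genes (2.45%) were highest and 5 (0.874%) were lowest. In library 1, 2 genes (0.35%) were highest and 4 (0.699%) were lowest, and in library 3, 6 (1.05%) were highest and 5 (0.874%) were lowest. Which sleep state library 2 is, and so whether these differences belong to sleep, is not known, and mice, tissue and handling cannot be told apart from it.

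Gjb6 (connexin 30), in the order of libraries 1, 2 and 3, had levels of 643 CPM (95% Poisson interval 556 to 740), 1290 CPM (1177 to 1412) and 655 CPM (592 to 723). Library 2 stood apart from both others, which overlapped. Members of at least 1000 UMIs were few (11, 9 and 122), and in them Gjb6 had 7, 1 and 62 UMIs, or 565 (227 to 1164), 89.6 (2.27 to 499) and 397 (304 to 509) CPM, with library 2 the lowest and the intervals overlapping. Timp4, a tissue inhibitor of metalloproteinases, was at 288, 561 and 344 CPM, Mfsd2a, a lysolipid carrier, at 152, 388 and 167 CPM, and Fzd2, a Wnt receptor, at 186, 295 and 170 CPM. Sepp1, which encodes the selenium carrier selenoprotein P, was at 537, 1147 and 675 CPM. In marker-negative cells 11 of the 14 genes were also highest in library 2, among them Gjb6 at 58.9, 77.4 and 15.7 CPM and Sepp1 at 461, 871 and 350 CPM. Marker-negative cells may hold astrocytes without a marker UMI, so they are not a separate cell type. The part of such cells in these levels was not tested. Others of the 14 genes were Marc2, Mrpl41, Lrrc8a, Rsrp1, Ramp2, Eci2, Crip2 and Hacd2. Of the 14 genes, 12 stayed in the set without members that held another class and 13 with members of 3 or more marker UMIs.

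Mt1 and Mt2 were also highest in library 2, by less than 1.5-fold over either of the others. Mt1 was at 15307 (14869 to 15755), 22637 (22154 to 23128) and 16810 (16482 to 17144) CPM. Mt2 was at 5046 (4796 to 5306), 7026 (6758 to 7302) and 4932 (4755 to 5114) CPM. For both genes the interval of library 2 lay above those of the others among all members. In members of at least 1000 UMIs Mt2 was lowest in library 2, at 4923 (3766 to 6324), 3137 (2185 to 4363) and 4867 (4527 to 5226) CPM. Mt1 was highest there, at 15657 (13531 to 18022), 19898 (17366 to 22695) and 17745 (17091 to 18419) CPM, but the interval of library 2 overlapped both others. Mt3, the metallothionein of the nervous system, was at 6240, 7538 and 7107 CPM, with library 2 again the highest and library 1 the lowest. In members of at least 1000 UMIs Mt3 was lowest in library 2, at 6618, 6095 and 7666 CPM, with overlapping intervals. All 3 metallothioneins were higher in the members, with Mt1 at ratios of 7.81, 10.3 and 26.3. In marker-negative cells Mt1 was at 1952, 2194 and 630 CPM and Mt2 at 565, 590 and 159 CPM.

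Genes lowest in library 2 were Hes5, Dbp, Slc38a3, Tst and AI413582. Hes5, a Notch effector, was at 597 CPM (513 to 691), 363 (304 to 430) and 551 (492 to 614). Dbp, a clock output factor, was at 434 (363 to 515), 209 (165 to 261) and 328 (284 to 378) CPM. Slc38a3, a glutamine transporter, was at 265, 136 and 248 CPM. All 5 stayed lowest without members that held another class, and 0 of the 5 stayed in the set with members of at least 3 marker UMIs. Dbp was then still lowest in library 2 at 445, 221 and 319 CPM. Tsc22d3 was lowest in library 1, at 491 CPM (415 to 576), against 1117 (1012 to 1230) and 751 (683 to 824) in libraries 2 and 3. In members of at least 1000 UMIs Tsc22d3 was lowest in library 3, at 726 (332 to 1379), 1165 (620 to 1992) and 621 (504 to 758) CPM with overlapping intervals. In marker-negative cells Tsc22d3 had the order seen in all members, at 163, 318 and 214 CPM. Library 1 was also highest for Ntm and Hes1 and lowest for Camk2n1, Hint1 and Hbb-bs.

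**Figure D3:**
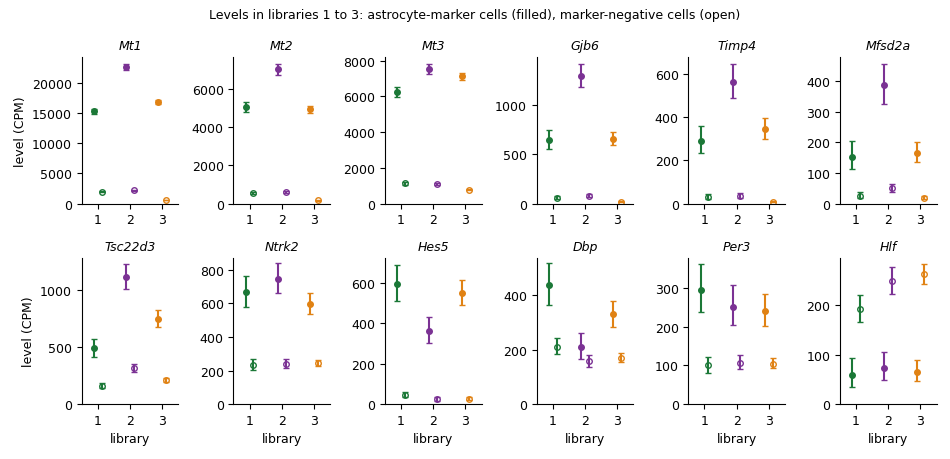
Levels in CPM of 12 genes in libraries 1, 2 and 3 (x axis) with exact 95% Poisson intervals. Filled points are astrocyte-marker cells and open points are marker-negative cells. Gjb6 stands at 1290 CPM in library 2 and at 643 and 655 CPM in the others, while Dbp stands at 209 CPM in library 2.

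Library 3 was highest for Ptgds, Actb, Crip1 and 3 hemoglobin genes. Ptgds, a prostaglandin D synthase abundant in the meninges, was at 590, 794 and 1249 CPM, but 151 of its 178 UMIs in library 1 and 571 of its 742 UMIs in library 3 lay in 1 cell. Without the top cell of each library, Ptgds was at 89.7, 621 and 289 CPM, and library 2 was the highest. The hemoglobin transcript Hbb-bs was at 431, 683 and 1226 CPM, although in marker-negative cells Hbb-bs had the opposite order, at 4509, 3002 and 2135 CPM. Only 46 members of library 3 held an Hbb-bs UMI, and without the top cell of each library the levels were 329, 445 and 826 CPM. Hba-a1 and Hba-a2 are near-identical genes between which reads may be split, and each was also highest in library 3. Crip1 was at 113, 176 and 338 CPM, and the endothelial and smooth muscle lists given above were highest in library 3 too. The part of those cells in the values was not tested. Actb, the cytoskeletal actin, was at 2636, 2930 and 4731 CPM, with 2.38% of its UMIs in the top cell of library 3. With members of at least 3 marker UMIs, the genes highest in library 3 fell from 6 to 2 (Actb and Hbb-bs) and those highest in library 1 from 2 to 0.

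Among the genes lowest in library 3 were Vps8, mt-Atp8, Gm10076 and Rps27rt. Vps8 was at 1634, 1166 and 769 CPM, and its marker-negative level had the same order at 4373, 3542 and 2435 CPM. Gm10076 and Rps27rt are copies of ribosomal protein genes, and their counts are uncertain for that reason.

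Against the members of libraries 4 to 9, selected by the same rule, those of libraries 1 to 3 carried far fewer transcripts of ependymal cells. A gene was counted when all 3 libraries lay at least 2-fold from all 6 others. Of 5014 genes, 59 (1.18%) were higher in libraries 1 to 3 and 231 (4.61%) were lower. The 10 genes most below were Tmem212, Ccdc153, Dynlrb2, Fam183b, Rsph1, Mia, Meig1, Nnat, Cd24a and Mlf1, most of them genes of motile cilia. Tmem212 was at 0 CPM in each of libraries 1 to 3 and between 391 and 1299 CPM in libraries 4 to 9. Ependymal cells carry such cilia and line the ventricles, and an ependymal UMI (list without Rarres2) was seen in 1.22%, 1.72% and 1.89% of members of libraries 1 to 3 against 19.8% to 63.0% in the others. With all such cells left out, an alternative added after seeing the data, 36 genes were higher and 22 lower, of which 28 and 12 were in the first sets. Libraries 1 to 3 then kept 650, 855 and 726 members, and the others between 40 (library 6) and 293.

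Other foreign transcripts moved with this contrast too. The pituitary list summed to 38445 to 88411 CPM in the members of libraries 4 to 6 and to 97.7 to 111 CPM in those of libraries 1 to 3, and 86.6% to 100% of the former held at least 2 such UMIs. At least 2 hemoglobin UMIs were seen in 49.9% to 72.7% of the members of libraries 7 to 9. Members with at least 2 UMIs of the remaining lists of other types were 46.0% to 88.9% in libraries 4 to 9. Without those members 30 genes were higher and 28 lower, of which 21 and 9 were among the 59 and the 231. The part of the pituitary and hemoglobin transcripts in the contrast was not tested by leaving out cells.

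Among members with no ependymal UMI, 22 genes were lower in all of libraries 1 to 3. Nnat, an imprinted gene of developing brain, was at 115, 99.7 and 70.6 CPM against 950 to 3374 CPM in libraries 4 to 9. Agt, the precursor of angiotensin, was at 60.7, 55.4 and 18.9 CPM against 369 to 2406 CPM. Itih3 was at 64.1, 72.0 and 67.2 CPM against 344 to 1793 CPM, and Sparc, a matrix protein, was at 101, 227 and 129 CPM against 1254 to 3463 CPM. Fos was at 20.2, 41.5 and 24.1 CPM against 100.3 to 434 CPM, and Junb at 20.2, 49.8 and 27.6 CPM against 161 to 323 CPM. The count itself required that the libraries not overlap.

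Other genes ran the opposite way. Mfge8, which encodes a bridge for engulfing dying cells, was at 1807, 1846 and 1984 CPM against 123 to 517 CPM, still without ependymal cells. Clu, which encodes clusterin, was at 6301, 7098 and 6234 CPM against 762 to 2863 CPM. Gstm5 was at 2232, 2425 and 1987 CPM against 148 to 534 CPM, and Pantr1, a noncoding RNA, at 1048, 850 and 1026 CPM against 87.0 to 192 CPM. Chst2, Hapln1, Oaf, Ppp1r3g, Tspan7, Cspg5, Fjx1 and Camk2a, the other genes most above among all members, also stayed higher. The list of 38 astrocyte genes as a whole was higher in libraries 1 to 3 among all members. It summed to 109841, 114300 and 110285 CPM there and to 37196 to 78940 CPM in libraries 4 to 9. Of its genes 4 (Slc1a2, Mfge8, Clu and Scg3) were counted as higher and 1 (Dbi) as lower. The part of this general difference in the Clu and Mfge8 values was not tested. Camk2a is on the neuronal list, as is Nrgn, which was also higher in libraries 1 to 3 among all members, while that list as a whole summed to 2047 to 2383 CPM in libraries 4 to 6 and to 215 to 291 CPM in libraries 7 to 9. The part of neuronal transcripts in the Camk2a values was not tested. Emx2, a transcription factor of the developing forebrain, was at 53.9, 69.2 and 72.3 CPM against 0 to 14.8 CPM. Library 6 kept only 40 such members, and its 0, which allows up to 3 counts, may not lie below libraries 1 to 3. Of 9 genes of the telencephalic list with a sufficient level, 5 were higher in all members, beside 1.18% of all genes. Among them were Emx2, Mfge8, Ddah1 and Mgll. Of 15 nontelencephalic genes, 1 was lower in all members (Sparc), beside 4.61% of all genes. That list as a whole summed to 1101, 1222 and 1051 CPM in libraries 1 to 3 and to 2018 to 7220 CPM in libraries 4 to 9, and its genes Agt and Itih3 were lower too once members with an ependymal UMI were left out. These levels do not name the region of any library here, since no label ties a code to a region.

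**Figure D4:**
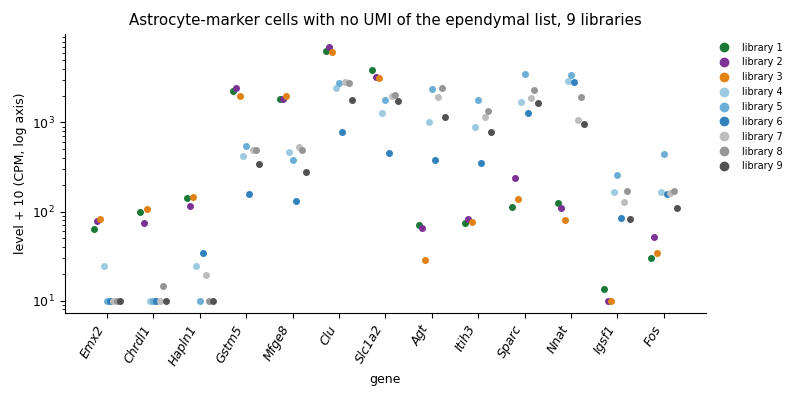
Level plus 10 CPM (log axis) of 13 genes in the members with no ependymal UMI of each of the 9 libraries, without error bars. Libraries 1 to 3 are the green, purple and orange points at the left of each gene. For Agt they lie between 18.9 and 60.7 CPM before the 10 is added, and libraries 4 to 9 between 369 and 2406 CPM.

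For most genes the spread among the members of libraries 1 to 3 was near that of counting. Members of at least 500 UMIs (189, 188 and 740 cells) were thinned to 500 UMIs, and the variance of each gene's UMIs over cells was divided by its mean. The median ratio of 936 genes was 1.03, 1.04 and 1.04. In all 3 libraries, 25 genes (2.67%) reached 1.5, and 44 did when cells were thinned to 800 UMIs. Ptgds had the highest ratios, at 120, 30.1 and 133 with means of 0.667, 0.511 and 0.384 UMIs per cell, with most of its UMIs in 1 cell in libraries 1 and 3. Malat1, a nuclear noncoding RNA, had ratios of 31.5, 26.4 and 32.9, and the mitochondrial genes mt-Atp6, mt-Co3 and mt-Nd1 between 3.95 and 8.60.

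Several astrocyte genes also spread beyond counting. Apoe had ratios of 3.91, 4.00 and 3.93, and Cst3 of 3.76, 3.66 and 3.63. Mt1 had ratios of 3.03, 3.84 and 3.76, Mt2 of 2.26, 2.08 and 2.04 and Mt3 of 1.49, 1.83 and 2.03. Their means were 8.2 to 11.9, 2.5 to 3.4 and 3.3 to 3.9 UMIs per cell. The ratio also depends on the mean, so these genes are not ranked by their spread. Clu had ratios between 1.72 and 1.80, and Gfap, at a mean of 0.0527 to 0.117 UMIs per cell, between 1.56 and 2.44. Crip1 and Ly6c1, which mark vessel cells, and the microglial C1qa and Ctss were in the same set. Without members that held at least 2 UMIs of another class, 16 genes remained past 1.5, and 15 of them were among the 25.

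**Figure D5:**
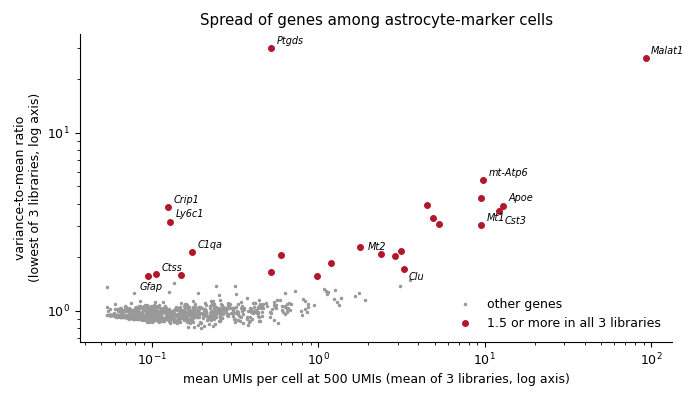
Variance-to-mean ratio of each gene among astrocyte-marker cells thinned to 500 UMIs (lowest of 3 libraries, log axis) against its mean UMIs per cell (log axis). Red points are the 25 genes at 1.5 or more in all 3 libraries, with Ptgds and Malat1 above the rest.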

How the data were processed

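The authors deposited UMI counts of 18634 genes in 29571 cells, made with Cell Ranger 2.2.0 against GRCm38 per the labels. Strand use in counting is not given in the sources used here. The table's 9 library codes are not explained by any label, so no library was assigned a group. The members, gene lists and tests were chosen with earlier results of these data known. Counts were summed over the cells of a class in a library and given per 1000000 (CPM) with 95% Poisson intervals, while shares had Clopper-Pearson intervals, all in Python 3.11.15 with numpy 2.4.6, scipy 1.17.1 and pandas 2.3.3. Library totals were 1522766, 1933812 and 3671604 UMIs for libraries 1 to 3. A level of 0 allows up to 3 counts. The steps were tested on simulated data. A pseudocount of 10 CPM, a minimum of 50 CPM and a limit of 2-fold defined the calls.

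Genes were named by a fixed rule: the 4 with the highest level in each list (6 for the astrocyte list), the 10 most apart in each direction in each comparison, the 10 with the highest variance-to-mean ratio, and Mt1, Mt2, Tsc22d3, Gjb6, Atp1b2, Apoe, Aldoc, Ntrk2, Bdnf, Hlf and Cebpb. Further genes were named after their values were seen, among them those called in 1 of libraries 1 to 3, the genes of the comparison without ependymal UMIs, and lower genes of the lists. No doublet caller was used. Members with 2 or more UMIs of another class (hemoglobin and pituitary lists, and Cspg5, Cnp, Lhx2, Slc2a1, Pdgfrb and Ttr, not counted) were instead counted and left out in an alternative, whose gene list was set after seeing values. Barcodes found in more than 1 library numbered 549, and 95 members carried such a barcode. The rule's 6 genes were left out of all calls. Alternatives changed the pseudocount, the minimum level, the total, the rule's threshold, the comparison cells and the libraries. Some genes of the lists and comparisons are counted but not reported here by name.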

Additional observations from a re-analysis of the deposited data

How the results depend on the processing

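Low depth and the absence of replicates limit these values, since a median of 378 to 724 UMIs per member leaves genes near or under the limit of 3 counts (9.95, 8.13 and 5.05 CPM) unmeasured. The member shares of libraries 1, 2 and 3 moved with the rule. They were 16.1%, 18.4% and 22.4% with at least 3 marker UMIs, 27.7%, 30.6% and 31.8% with no limit on Snap25 and Slc17a7, and 19.6%, 14.7% and 23.2% in cells thinned to 500 UMIs. In cells of at least 1000 UMIs they were 3.37%, 2.08% and 10.9%. With Htra1, Slc1a3 and Cldn10 only, the share was 23.7% in library 1 and stayed within its interval in the others.

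Of the genes set beside marker-negative cells, 182 were higher and 371 lower when at least 200 CPM was required, and the other alternatives stayed within 1.5 times of 463 and 1466. Of the genes setting libraries 1 to 3 apart from the others, 35 were higher and 74 lower with at least 200 CPM, and 30 and 28 without members holding another class. With libraries 4 to 6 left out 100 were higher, and with libraries 7 to 9 left out 129 were higher and 386 lower. With at least 3 marker UMIs 101 were lower, and with no ependymal UMI 36 were higher and 22 lower. Genes with a variance-to-mean ratio of 1.5 or more numbered 44 at 800 UMIs and 16 without members holding another class. With at least 3 marker UMIs, genes lowest in library 2 fell from 5 to 1, and without members holding another class genes lowest in library 3 fell from 5 to 2. Of 54 levels of named genes, 54 kept within their interval as a mean over cells and 44 with at least 3 marker UMIs, while 38 left it in members of at least 1000 UMIs. The causes were not tested. No paired analysis was possible because no library could be assigned to a group or replicate number.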
